A study of Mus musculus with 4 samples.

Results

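Col1a1 and Col1a2 encode the alpha 1 and alpha 2 chains of type I collagen. They were examined for RNA polymerase II (Pol II) peaks in ChIP-seq of primary mouse osteoblasts. The members were these 2 genes, of 21883 protein-coding genes, and every listed peak from 20 kb before the start to 20 kb past the 3′ boundary of each gene. The genes were chosen by name and the peaks by position. The windows held 6 of 1694 peaks of the untreated list and 11 of 40748 peaks of the OSS_128167 list.

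The cells were mesenchymal stem cells grown from bone pieces of young mice and kept for 3 days in osteogenic medium, and both conditions share this treatment. One condition is labelled WT osteoblasts. In the other the cells were treated with OSS_128167, an inhibitor of SIRT6, which is a deacylase of chromatin. The labels used here name no strain, dose or length of exposure, and the treatment field names the inhibitor for all 4 samples, so "untreated" rests on the titles. There was 1 Pol II library per condition, and the input library of each was not analysed here, so the values below compare 2 libraries and no test between conditions was possible.

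Type I collagen is a triple helix of alpha 1 and alpha 2 chains and makes up most of the organic matrix of bone. Osteoblasts transcribe both genes at a high rate, and the chains are hydroxylated and folded in the endoplasmic reticulum, secreted as procollagen, trimmed at both ends and assembled into fibrils. Pol II ChIP recovers polymerase at promoters, along transcribed genes and past the polyadenylation site, where transcription is known to continue before termination. Both genes read towards higher coordinates, and the strand of Col1a1 was taken from textbook knowledge. On GRCm38.p6, Col1a1 spans 16819 bp (chromosome 11, 94936224 to 94953042) and Col1a2 spans 35926 bp (chromosome 6, 4505618 to 4541543).

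The sequence just before the start of Col1a2 is shown because the first OSS_128167 peak of the gene begins inside it. The first line gives the 250 bases before the start (RefSeq, GRCm38.p6, chr6:4505368-4505617, plus strand), and the second its last 39 bases (chr6:4505579-4505617), which lie in that peak. Capitals mark matches, on either strand, to TATAAA for the TATA box, CCAAT for the CCAAT box, GGGCGG for the GC box and TGANTCA for the AP-1 site. The matches found do not overlap one another.
Col1a2, 250 bases before the start: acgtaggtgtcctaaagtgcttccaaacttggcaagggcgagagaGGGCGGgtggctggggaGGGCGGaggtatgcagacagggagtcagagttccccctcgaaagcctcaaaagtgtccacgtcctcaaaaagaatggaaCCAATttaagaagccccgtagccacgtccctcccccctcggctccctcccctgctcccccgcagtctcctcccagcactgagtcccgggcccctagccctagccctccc
Col1a2, bases before the start inside the peak: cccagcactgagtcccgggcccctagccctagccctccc

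The window held 1 CCAAT box, from 109 to 105 bases before the start, and 2 GC boxes, from 205 to 200 and from 188 to 183 bases before it. All 3 matches were on the plus strand and lay outside the OSS_128167 peak. Neither TATAAA nor TGANTCA was found in these 250 bases. Of 21262 promoter windows of protein-coding genes of the same length, 35.4% held a CCAAT box, 42.6% a GC box and 22.8% at least 2, 11.6% a TATA box and 6.13% an AP-1 site. The GC content was 62.0% in the Col1a2 window, beside a median of 55.6% over all windows. A match describes the letters only.

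In the OSS_128167 list, Pol II peaks covered both genes from the start to beyond the 3′ boundary. Col1a1 lay in peaks over 98.2% of its length (16509 bp) and Col1a2 over 97.4% (35002 bp). Both were thus covered over at least 50%, as were 0.681% of all protein-coding genes (149 of 21883) in this list. In the untreated list 6 short peaks took up 8.46% of Col1a2 (3038 bp), and Col1a1 had no listed peak. The map of peaks along both genes shows all of these peaks.

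**Figure D1:**
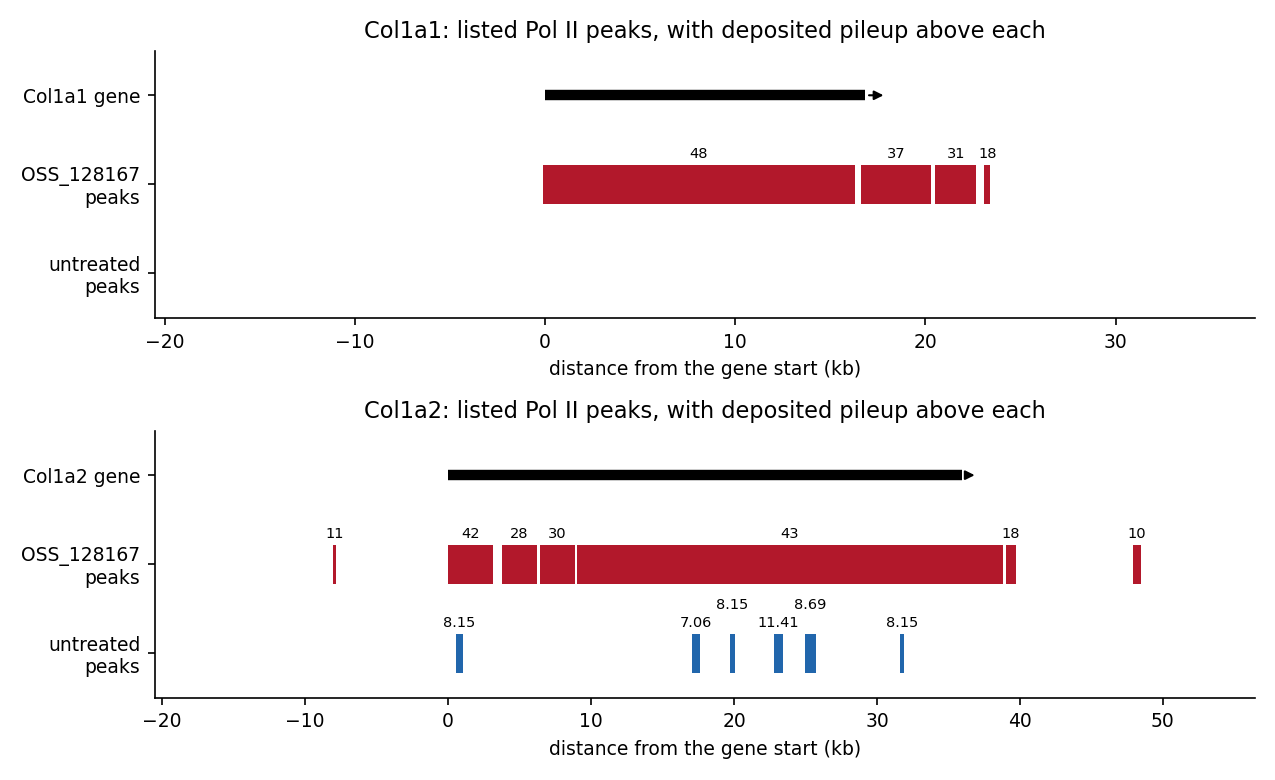
Listed Pol II peaks (boxes) from 20 kb before to 20 kb past Col1a1 and Col1a2, by distance from the gene start in kb, with the deposited pileup above each box and the gene as a black bar. The OSS_128167 peaks run, with short gaps, from the start of each gene to 6602 bp past the 3′ boundary of Col1a1 and 3774 bp past that of Col1a2, with 2 further peaks apart from Col1a2, while the untreated list has 6 peaks in Col1a2 and 0 at Col1a1.

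At Col1a1 the OSS_128167 list had 4 peaks, and their height was greatest over the gene. The first covered 94936124 to 94952512, a single interval of 16389 bp that began 100 bp before the start and ended 530 bp short of the 3′ boundary. Its pileup, the deposited height of signal, was 48, its fold enrichment 9.42 and its FDR 1.56e-29. Pileup, fold, p-value and FDR are the authors' values for each peak within its own list. Each peak has 1 height and no position for it, so the profile inside this interval is unknown.

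The other 3 peaks of Col1a1 lay at and past the 3′ boundary. The second, of 3718 bp, ran from 219 bp before the boundary to 3498 bp past it, with a pileup of 37 and a fold of 9.27. The third, of 2142 bp, ended 5847 bp past it, with a pileup of 31 and a fold of 8.42. The last, of 320 bp, ended 6602 bp past it, with a pileup of 18, a fold of 4.78 and an FDR of 5.54e-06. Pileup and fold were thus lower in each peak further along. The peaks were also shorter in that order, so position and length cannot be told apart here. All 4 had an FDR of at most 0.05, as had 6568 of the 40748 peaks of the list.

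The peaks of Col1a1 were separated by short gaps. The gaps measured 310, 207 and 435 bp, where the smallest gap in the whole OSS_128167 list was 144 bp and 6.23% of its 40713 gaps between neighbours were at most 600 bp. The 310 bp gap, from 529 to 220 bp before the 3′ boundary, was the only part of Col1a1 outside a peak. When the gene was divided into 10 equal parts, the first 9 were covered over 100% and the last over 81.6%.

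At Col1a2 the OSS_128167 list had 7 peaks, of which 4 reached the gene. The first of these covered 4505579 to 4508769 (3191 bp), beginning 39 bp before the start, with a pileup of 42, a fold of 7.08 and an FDR of 2.00e-20. The next had 2509 bp, a pileup of 28 and a fold of 6.34, and the one after it 2410 bp, a pileup of 30 and a fold of 5.49. The last of the 4 was a single interval of 29800 bp, from 8995 bp after the start to 2869 bp past the 3′ boundary. Its pileup was 43, its fold 9.03 and its FDR 8.15e-26. Unlike at Col1a1, the highest fold lay in a peak that began inside the gene, and pileup was lower in the 2 peaks between the start and the long interval.

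Gaps inside Col1a2 lay in its first 8994 bp, and the rest of the gene had none. They measured 588 bp (3152 to 3739 bp after the start), 185 bp and 151 bp, 924 bp in all. Of 10 equal parts of the gene, the first 3 were covered over 87.8%, 90.7% and 95.8%, and the other 7 over 100%. The uncovered bases of Col1a1 were at its other end.

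Outside Col1a2 the OSS_128167 list had 3 further peaks. One of 690 bp followed the long interval after a gap of 215 bp and ended 3774 bp past the 3′ boundary, with a pileup of 18, a fold of 4.32 and an FDR of 3.81e-05. The remaining 2 stood apart from the gene and had an FDR above 0.05. One, of 226 bp (the shortest length in the list), began 8047 bp before the start with a pileup of 11 and an FDR of 0.0839. The other, of 594 bp, began 11979 bp past the 3′ boundary with a pileup of 10 and an FDR of 0.310. It was the outermost peak within the 20 kb limit, and the nearest ones beyond the limit were 128 kb before and 78.8 kb past Col1a2. For Col1a1 those distances were 37.8 kb and 53.9 kb.

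Peaks began close to the start of both genes and reached much further past the 3′ boundary. In the OSS_128167 list the 5 kb past Col1a1 were covered over 4793 bp (95.9%) and the 5 kb before it over 100 bp. The 5 kb past Col1a2 were covered over 3559 bp (71.2%) and the 5 kb before it over 39 bp. From 5 to 20 kb past the boundary 7.78% of bases at Col1a1 and 3.96% at Col1a2 lay in peaks.

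No neighbouring gene lay under these peaks. Gm46293, a long non-coding RNA gene that ends 1608 bp before the start of Col1a1, had no peak in either list, nor had Sgca, which encodes alpha-sarcoglycan and begins 9735 bp past Col1a1. Hils1 and the pseudogene Gm22456, also within 20 kb of Col1a1, had none either. No annotated gene other than Col1a2 lay within 20 kb of it, and its nearest protein-coding neighbour was Casd1 at 59.4 kb.

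The reach past the 3′ boundary was set beside that of other long, well covered genes. In the OSS_128167 list 27 protein-coding genes that span 5 kb or more were covered over at least 50%, of which 21 were given a strand. That of Col1a1 was added from textbook knowledge. Other genes without a strand in the promoter table, Fn1 among them, were left out, so the ranks below exclude them. Peaks joined across gaps of at most 500 bp reached a median of 3515 bp past the 3′ boundary and 0 bp before the start of these 21, and the first was the longer in 19. The reach of Col1a1 (6602 bp) was exceeded by those of Fgfr2 (9924 bp), Brd2 (7550 bp) and Btg1 (6894 bp), and that of Col1a2 (3774 bp) ranked 9 of 21. A longer reach past the end than before the start was therefore shared by most of these genes. For 15 of the 21, Col1a1 among them, another annotated gene lay within 5 kb. Over the other 6, Col1a2 among them, together with Col1a1 the medians were 3774 and 39.0 bp. Both medians are the values of Col1a2 itself, so they do not compare it with other genes.

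**Figure D2:**
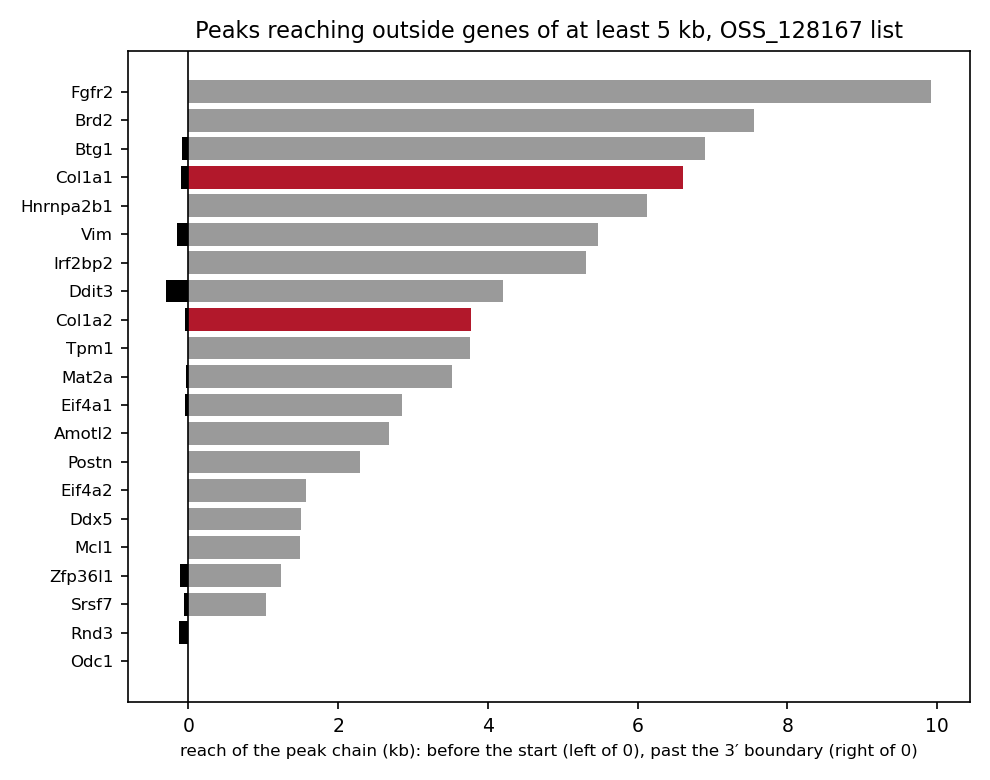
Distance in kb over which OSS_128167 peaks, joined across gaps of at most 500 bp, reached past the 3′ boundary (bars right of 0) and before the start (black bars left of 0) of 21 protein-coding genes. Col1a1 and Col1a2 (red) reached 6602 and 3774 bp past the boundary, within the range of the other genes, and at most 100 bp before the start.

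The long intervals at the collagen genes stood out in length more than in height. Among the 40748 OSS_128167 peaks, the 29800 bp peak of Col1a2 was the longest and the 16389 bp peak of Col1a1 ranked 3, with a peak of 21359 bp over Fn1, which encodes fibronectin, between them. By pileup they ranked 63 and 51, and by fold 47 and 40. Of the 80 peaks with a pileup of at least 40 the median length was 1066 bp. Of the 8 peaks over 10 kb in the whole list, 6 were among these 80. The next longest peaks of the list, of 15066 and 14349 bp, overlapped no protein-coding gene.

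**Figure D3:**
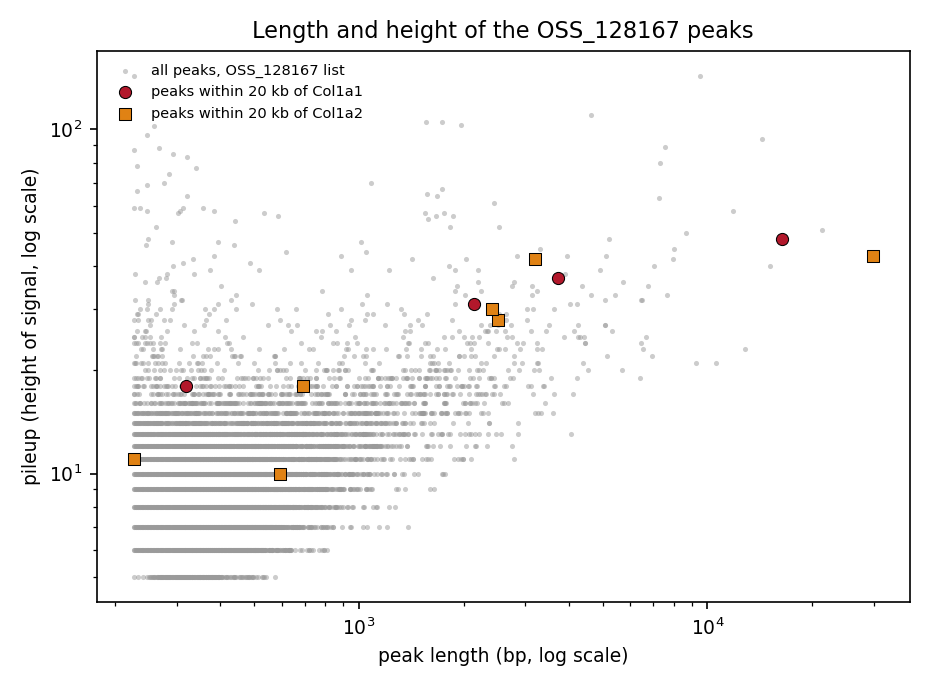
Length in bp against pileup for all OSS_128167 peaks (grey), with the 4 peaks around Col1a1 (circles) and the 7 around Col1a2 (squares), both axes on log scales. The longest peaks of both genes lie at the right edge, at pileups of 48 and 43. Of the 40748 peaks 80 have a pileup of at least 40, and the median length of those is 1066 bp.

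The deposited fold also depends on the background at each site. The background was derived as the pileup plus 1, divided by the fold, minus 1. This is an assumption under which a Poisson model returns every deposited p-value to within 0.00546 log10 units. The value was 4.20 at the first peak of Col1a1 and 2.80 to 3.10 at its other 3. At Col1a2 it was 5.08 at the peak over the start and 3.87 in the long interval. All 11 OSS_128167 peaks around the genes had a background above the median of 2.17 for that list.

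In the untreated list all 6 peaks around the genes lay inside Col1a2, and each had an FDR of 1. Of the 1694 peaks of this list, 1378 had that same FDR and 109 had one of at most 0.05. Pileup in this list comes in steps of 0.543, and the list may be scaled differently from the other, so heights are compared within a list only. The first peak lay 550 to 1029 bp after the start, with a pileup of 8.15, a fold of 3.77 and a p-value of 1.90e-05. The other 5 lay further along, from 17027 to 31859 bp after the start. Among these, the peak that began at 24941 bp was the longest (763 bp) and had the highest fold (3.89).

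The highest untreated peak of Col1a2 was the one with the lowest fold. It began 22806 bp after the start, with a pileup of 11.41, a fold of 2.07, a p-value of 0.00545 and an implied background of 5.0. The other 5 had pileups of 7.06 to 8.69, folds of 2.69 to 3.89 and backgrounds of 1.43 to 2.0. The 6 lengths ran from 237 to 763 bp, and the gaps between the peaks from 1534 to 15997 bp. No untreated peak was listed in the last 4066 bp of the gene or in the 20 kb past it, where the OSS_128167 list had 3 peaks.

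Each of the 6 untreated peaks lay wholly inside an OSS_128167 peak, 1 in the peak over the start and 5 in the 29800 bp interval. Since OSS_128167 peaks cover 97.4% of Col1a2, a peak placed anywhere in the gene would nearly always be overlapped. Elsewhere on chromosome 6, 10 of 271 untreated peaks (3.69%) overlapped an OSS_128167 peak. Those 271 had a median length of 231 bp and a median pileup of 5.43, beside 540.5 bp and 8.15 in Col1a2.

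Untreated peaks were much denser in Col1a2 than along its chromosome. The gene held 167 peaks per Mb, and chromosome 6, which had 277 untreated peaks, held 1.85 per Mb. Of all protein-coding genes 12 (0.0548%) had at least 6 untreated peaks, Col1a2 among them. Chromosome 11, with Col1a1, had 79 untreated peaks (0.648 per Mb), and the nearest to Col1a1 lay 478 kb away. The absence of a listed peak at Col1a1 does not show that Pol II was absent there, since the depth of the libraries is unknown.

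Against all protein-coding genes, coverage of this extent was rare. In the OSS_128167 list 34.4% of the 21883 genes had a peak in the gene, and 0.160% of the 16849 genes of at least 5 kb were covered over at least 50%. With peaks of an FDR of at most 0.05 alone, 0.553% of all genes passed this limit of 50%, and the coverage of both collagen genes was the same as with all peaks. In the untreated list 2.18% of genes had a peak in the gene, 0.114% had one with an FDR of at most 0.05, and 0.00457% (1 gene) were covered over at least 50%. By percent covered in the OSS_128167 list, Col1a1 and Col1a2 ranked 57 and 58 among all 21883 genes, and 2 and 3 among those of at least 5 kb, after Btg1 (100%).

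Among protein-coding genes of at least 5 kb, those most like both collagen genes, by the distance between percent covered in the OSS_128167 and in the untreated list over the 2 libraries, were the same 4 besides each other. Btg1, an antiproliferative gene, was the nearest of this length to both, at 4.85 percentage points from Col1a1 and 4.73 from Col1a2. It was covered over 100% and 4.49%, but spans 5813 bp, and its 1 OSS_128167 peak had a fold of 4.47. Next in distance, after the other collagen gene, came Ddit3, a transcription factor of the stress response (84.4% in the OSS_128167 list), Vim, the intermediate filament protein vimentin (84.0%), and Amotl2, an angiomotin family protein (81.2%), each with 0% in the untreated list. Col1a1 and Col1a2 lay 8.49 points apart, almost all of it from the untreated list. That part comes from the 6 untreated peaks in Col1a2, and none of them passed the 0.05 limit on FDR. Without these peaks Col1a2 has 0% there, like Col1a1. By OSS_128167 coverage alone the collagen genes (98.2% and 97.4%) lay closer to each other than to Btg1 (100%). The place of Btg1 as nearest gene therefore rests on weakly supported peaks.

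**Figure D4:**
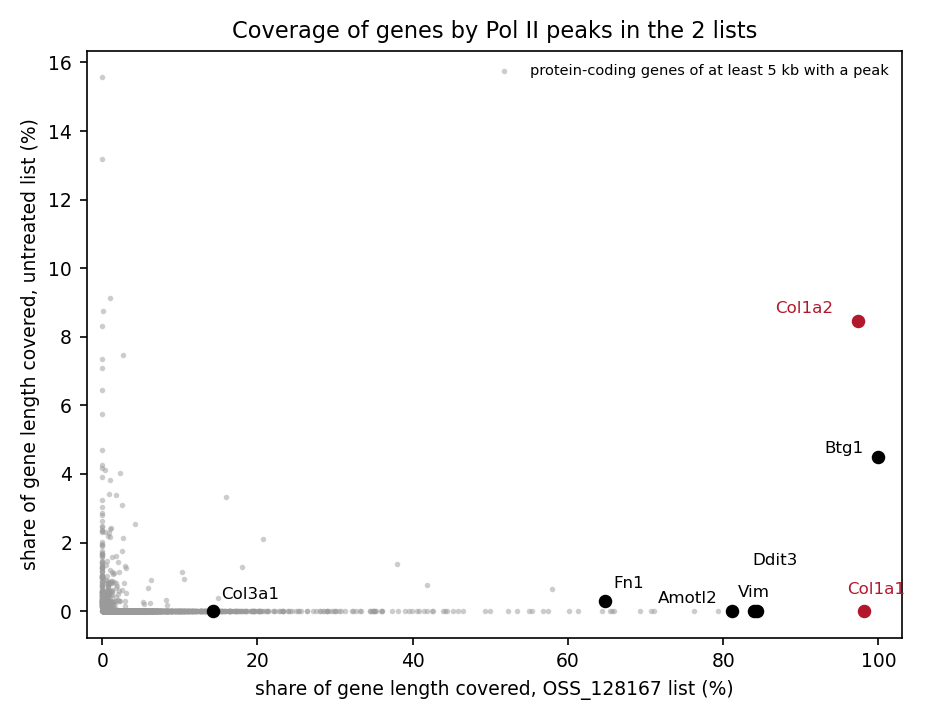
Percent of gene length in listed Pol II peaks in the OSS_128167 list (x axis) and the untreated list (y axis) for the 7151 protein-coding genes that span at least 5 kb and have a peak in either list, 1 point per gene. Col1a1 and Col1a2 (red) lie at the right edge with Btg1, and Col1a2 has 8.46% on the y axis where most genes covered over 50% in the OSS_128167 list have 0%.

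A list of other fibrillar collagens and of genes that process, bind or regulate type I collagen was mostly covered far less than the members. The list held 63 genes, of which 40 (63.5%) had an OSS_128167 peak and 18 (28.6%) one with an FDR of at most 0.05, beside 34.4% and 9.97% of all protein-coding genes. Gene length was not matched, here or for the groups below, and a longer gene has more room for a peak. The part of length in these shares was not tested. Of the 63, 3 (4.76%) were covered over at least 50%, beside 0.681% of all protein-coding genes. Those 3 were Fn1 (64.8%), Postn (57.9%), which encodes the matrix protein periostin, and the short gene Cebpb (53.0%), which encodes a transcription factor. With peaks of an FDR of at most 0.05 alone 2 were, beside 0.553% of all genes, since Postn was then covered over 47.4%. The median over the 63 genes was 0.501%, and over all protein-coding genes 0%. In the untreated list 4 of the 63 had a peak (6.35%, beside 2.18%).

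Among the 9 other fibrillar collagen genes 8 had an OSS_128167 peak, 3 of them with an FDR of at most 0.05, and 0 were covered over 50%. The shares of all protein-coding genes were 34.4%, 9.97% and 0.681%, not matched for length, and the 9 genes span 27766 to 259542 bp. Col3a1, whose product assembles with type I collagen in soft tissues, was covered over 14.2% by 9 peaks, the longest of 2111 bp, with a highest fold of 5.42. Col5a2 and Col5a1, whose chains form the type V collagen at the core of type I fibrils, were covered over 6.56% by 21 peaks and 4.83% by 18. None of the 9 had an untreated peak, beside 2.18% of all protein-coding genes.

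Genes of collagen processing were covered over little of their length. Against the 34.4% of all protein-coding genes with an OSS_128167 peak, of 10 genes of proline and lysine hydroxylation 5 had an OSS_128167 peak, and the highest coverage was 2.65% at P3h1, a prolyl hydroxylase. Of 7 chaperone and secretion genes 5 had one, led by Serpinh1, a collagen chaperone, with 23.3% of its 7865 bp and an FDR of 0.00852. Of 10 genes of propeptide removal and crosslinking 4 had one, and the highest coverage was 1.10% at Loxl4, a lysyl oxidase. None of these genes was covered over 50%, beside 0.681% of all protein-coding genes, and none had an untreated peak, beside 2.18%. The median OSS_128167 coverage over all protein-coding genes was 0%, so these counts do not set the processing genes apart.

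Receptors, regulators and fibril partners varied in coverage, and their counts stand beside the same 34.4% with a peak and 9.97% at an FDR of at most 0.05. Of 8 receptor genes 4 had an OSS_128167 peak, and Ddr2, a collagen receptor kinase, had 7 peaks over 1.82% of its length. Of 9 transcription factor genes 6 had one. Runx2, required for osteoblast formation, had 63 peaks over 8.40% of a gene of 318811 bp, and Sp7, also required, had 2 peaks with an FDR of at least 0.377. Of 10 binding partners 8 had one, 6 with an FDR of at most 0.05, and Sparc, a collagen-binding protein, was covered over 34.5% by 17 peaks.

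As a check of the labelled cell type, markers were set beside the 34.4% of all protein-coding genes with a peak in the OSS_128167 list and the 2.18% with one in the untreated list. Of 9 osteoblast markers, 4, Col1a1, Col1a2, Runx2 and Sp7, had an OSS_128167 peak, a count near the share of all genes. In the untreated list 2, Col1a2 and Runx2, had one, in neither gene with an FDR of at most 0.05. Col1a1 and Col1a2 are the members themselves, so they are no independent check of the cell type. Besides them only Runx2 and Sp7 had a peak, Sp7 with a lowest FDR of 0.377. Alpl, Bglap, Ibsp, Spp1 and Dmp1 had no peak in either list. In the OSS_128167 list 3 of 4 markers of macrophages and other blood cells had a peak. Cd68 was covered over 81.6%, but Ptprc and Adgre1 only over 0.213% and 0.670%, with lowest FDRs of 0.116 and 0.0212. A peak was also listed at 1 of 2 endothelial, 0 of 2 adipocyte and 2 of 3 chondrocyte markers. None of the markers of these other cell types had an untreated peak. With 2.18% of all genes having one, this does not set them apart. Whether a peak at a marker, such as those at Cd68, belonged to a neighbouring gene was not tested. The part of other cell types in the values of the collagen genes was not tested either.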

How the data were processed

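Pol II was measured by ChIP-seq in 1 library per condition. The submitters' processing notes name fastp, BWA and the build mm10. Which caller made the peaks, with which cutoffs and inputs, is not given in the sources used here. Per the file headers, each of the authors' lists gives position, length, fold enrichment (a ratio), p-value, FDR and pileup (a height of signal) per peak. The deposited lists hold no read totals, so depth is unknown.

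Gene boundaries came from RefSeq GRCm38.p6, the assembly behind mm10. Coverage is the percent of bases between the boundaries in any listed peak, and peaks overlap from 1 bp. Strand came from the RefSeq promoter table, in which 17491 of 21883 protein-coding genes matched, and for Col1a1 from textbook knowledge. No exon positions were used. With no replicates, nothing was tested between conditions. The members, gene lists and rules were chosen with earlier results of these data known. Named genes were the members, their neighbours within 20 kb, listed genes by role and coverage, genes of the longest peaks and, among genes of at least 5 kb, the 5 most alike in coverage. Cell type markers and the nearest protein-coding neighbour of Col1a2 were named besides. The reach of joined peaks was added after the data were seen, and genes of longer reach than Col1a1 were named with it. The work was done in Python 3.11.15 with pandas 2.3.3, numpy 2.4.6 and scipy 1.17.1, with matplotlib 3.10.9 for plots. The interval code, tested on simulated data, differed from a base-by-base count in 0 of 1500 windows.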

Additional observations from a re-analysis of the deposited data

How the results depend on the processing

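No paired analysis was possible because there was 1 library per condition. Of 96 values under another setting, 77 were close to the reported ones. Some of these could not change, since the window of Col1a1 held no untreated peak and its untreated values were 0 under every setting. At an FDR of at most 0.05, and also of at most 1e-05, Col1a2 in the untreated list had 0 peaks and 0% coverage, so its untreated values rest on peaks without support after correction for multiple tests. Most peaks of that list share this limit, as 109 of 1694 passed 0.05. The OSS_128167 coverage of both genes was the same at either limit, and 4 peaks around Col1a2 passed 1e-05. When peaks at most 500 bp apart were joined, Col1a1 had 1 peak covering 100% of the gene and Col1a2 had 4 covering 98.4%. The count of protein-coding genes covered over at least 50% in the OSS_128167 list was 95 at a limit of 75% and 27 among genes of at least 5 kb, and in the untreated list it was 0 for such genes and at an FDR of at most 0.05. All 6 untreated peaks also overlapped by at least 50% of the shorter peak, which had to hold because each lies wholly inside an OSS_128167 peak. With joins of at most 250 and 1000 bp, chosen after seeing the data, the reach past Col1a1 was 5847 and 6602 bp and past Col1a2 3774 bp under both. The ranks among the 21 genes moved more. With joins of at most 500, 250 and 1000 bp Col1a1 ranked 4, 1 and 6, and Col1a2 9, 6 and 12. The median reach of the 21 was 3515, 2298 and 4198 bp. Of 40 counts by position along the gene 6 moved, with narrower boundary windows or the peak centre in place of the interval.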

Other observations

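Of the 12 protein-coding genes with at least 6 untreated peaks, the other 11 had far less coverage than Col1a2 in the OSS_128167 list. Their OSS_128167 coverage ran from 0% to 2.62%, beside 97.4% at Col1a2. The 4 with the densest untreated peaks, named after their values were seen, were Gm21119 (309 peaks per Mb), Gm15319 (235), 9530057J20Rik (188) and 4930467E23Rik (162), beside 167 per Mb in Col1a2. These 4 lie on chromosome 8 and each had an untreated peak with an FDR of at most 0.05, which Col1a2 had not.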
